A study of Mus musculus with 30 samples.

Results

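The genes described here encode the subunits of the respiratory chain and ATP synthase, together with the NDUFAF assembly factors of complex I. They were taken from the count table by symbol: Nduf, Uqcr, Atp5 and Cox4 to Cox8 as leading letters, the succinate dehydrogenase genes Sdha, Sdhb, Sdhc and Sdhd, the cytochrome c1 gene Cyc1, and the mitochondrially encoded mt-Nd, mt-Co, mt-Atp and mt-Cytb genes, without symbols marked as pseudogenes by the ending -ps. This gave 112 of the 55421 genes, of which 99 are nuclear and 13 mitochondrially encoded. The nuclear members comprise 39 genes of complex I (NADH dehydrogenase), 8 complex I assembly factors, 4 of complex II (succinate dehydrogenase), 9 of complex III (the cytochrome bc1 complex), 19 of complex IV (cytochrome c oxidase), 18 of ATP synthase, and Ndufa4 with its relative Ndufa4l2, which carry a complex I name although NDUFA4 is a subunit of cytochrome c oxidase. The 9 genes with the ending -ps were left out, and 4 nuclear members that the annotation calls processed pseudogenes (Cox6c2, Ndufa11b, Ndufb4c and Ndufs6b) were kept because the choice by symbol holds them.

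The respiratory chain passes electrons from NADH and succinate to oxygen and uses the energy to pump protons out of the mitochondrial matrix, and ATP synthase lets the protons back to make ATP. Complexes I, III and IV and ATP synthase are built from proteins of both genomes, whereas complex II is wholly nuclear. Mitochondrial genes are transcribed inside the organelle as long precursors by a dedicated polymerase, and nuclear subunit genes are transcribed singly, many with binding sites for NRF1, GABP or YY1 in their promoters. Embryonic stem cells make much of their ATP by glycolysis and hold comparatively simple mitochondria.

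The libraries hold polyadenylated RNA of E14 cells, a male embryonic stem cell line from mouse strain 129, kept in serum with LIF and the kinase inhibitors PD0325901 and CHIR-99021. Each of 5 lines carried Tir1, the plant protein that directs an auxin-inducible degron (AID) to the proteasome when auxin (IAA) is given, and each is a single named cell line. TIR1 carried nothing else and was sampled untreated or after 24 h of 500 µM auxin, as were PDS5AB, with AID on PDS5A and PDS5B, and WAPL, with AID on WAPL. PDS5AB-NIPBL and WAPL-NIPBL carried those same fusions together with an FKBP degron on NIPBL and a HaloTag on RAD21, and were sampled untreated or after 24 h of 500 µM auxin with 500 nM dTAG-13, the molecule that acts on FKBP. RAD21 is a subunit of cohesin, which folds chromatin into loops, NIPBL drives its loop extrusion, and PDS5A, PDS5B and WAPL regulate its release. The degrons act on protein, so the transcripts of the targeted genes do not check the labels.

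There were 3 libraries in each of the 10 groups, 30 in all, with 19632704 to 45539021 counted fragments each, and nothing in the labels says that they came from separate cultures, so the tests measure the spread between these libraries. The library numbers in the labels fall into 2 series: 1 to 21 holds the 9 libraries of untreated TIR1 and both PDS5AB groups, and 25 to 45 the other 21. The auxin effect in TIR1 and the comparisons of untreated WAPL with TIR1 and of untreated PDS5AB-NIPBL with PDS5AB therefore cross the 2 series, and number series and group cannot be told apart there. The 10 embryonic stem cell markers, among them Pou5f1 and Nanog, summed to 4488 to 7425 CPM (counts scaled to a common library size) in every library, whereas 7 fibroblast markers summed to 16.4 to 42.4 CPM and 5 muscle markers to 1.86 to 7.60 CPM. Of the fibroblast markers, Pdgfrb ranged from 7.70 to 22 CPM, Thy1 from 1.19 to 14.3 CPM, Col1a1 from 2.33 to 8.31 CPM and Col1a2 from 0.101 to 1.76 CPM, and Postn, Dcn and Lum were at 0 to at most 0.294 CPM.

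The mitochondrial members fell into 2 classes by their counts. Their order along the mitochondrial genome is Nd1, Nd2, Co1, Co2, Atp8, Atp6, Co3, Nd3, Nd4l, Nd4, Nd5, Nd6 and Cytb. The 6 neighbours from mt-Co2 to mt-Nd4l (chromosome M, 7013 to 10173, GRCm38) averaged 28.6 counts (mt-Nd4l) to 761.9 counts (mt-Co2) per library, while the other 7 averaged 29256 counts (mt-Nd6) to 396452 counts (mt-Co1). Pseudogenes with the same letters stand on the minus strand of chromosome 1 between 24612407 and 24615565: Gm28661 matches mt-Co2, Gm10925 mt-Atp6, Gm28437 mt-Co3, Gm28438 mt-Nd3 and Gm10222 mt-Nd4l, each with 100% identity over 98.3% to 99.9% of the gene. For mt-Atp8, which lies between mt-Co2 and mt-Atp6, no annotated copy of that quality was found, but the gap between those 2 genes is 230 bases in the mitochondrial genome and 233 bases in the chromosome 1 stretch. The recorded counting command has no option to count fragments that map equally well to 2 places, so the levels of these 6 members are uncertain and not comparable with those of the other 7. Of the other 7, mt-Nd4 matches Gm28439, next to that stretch, without a mismatch over 63.6% of its length, so part of it can be hidden from the count as well. mt-Co1 has a full-length copy on chromosome 2, Gm13340, with 97.6% identity, and 69.7% of its runs of 25 bases (62.9% in mt-Nd4) also occur in an annotated pseudogene, so its count can be too low too. Gm11410 on chromosome 4, the closest annotated copy of mt-Cytb, is 92.9% identical to it, and mt-Cytb averaged 96232 counts.

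The starts of the mt-Co2 gene and of its copy are identical letter for letter, and the corresponding stretch of mt-Cytb and its copy, with the differing bases in capitals, shows a copy that differs. All 4 runs are read from the annotated transcripts (GENCODE vM21, GRCm38): mt-Co2 at chrM:7013-7102 on the plus strand, Gm28661 at chr1:24615476-24615565 on the minus strand, mt-Cytb at chrM:14146-14235 on the plus strand and Gm11410 at chr4:80003990-80004079 on the plus strand.
mt-Co2: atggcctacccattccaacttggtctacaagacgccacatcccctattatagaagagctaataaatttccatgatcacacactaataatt
Gm28661: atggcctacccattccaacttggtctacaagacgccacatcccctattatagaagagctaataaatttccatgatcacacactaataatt
mt-Cytb: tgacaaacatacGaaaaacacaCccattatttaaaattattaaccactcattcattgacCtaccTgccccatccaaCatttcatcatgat
Gm11410: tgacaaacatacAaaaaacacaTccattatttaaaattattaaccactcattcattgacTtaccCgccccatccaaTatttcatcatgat
The 2 runs for mt-Co2 differ at 0 of 90 bases and those for mt-Cytb at 5 of 90 bases. mt-Nd6, encoded on the opposite strand from the other 12, was counted without regard to strand, so fragments from RNA of the other strand add to it.

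**Figure D1:**
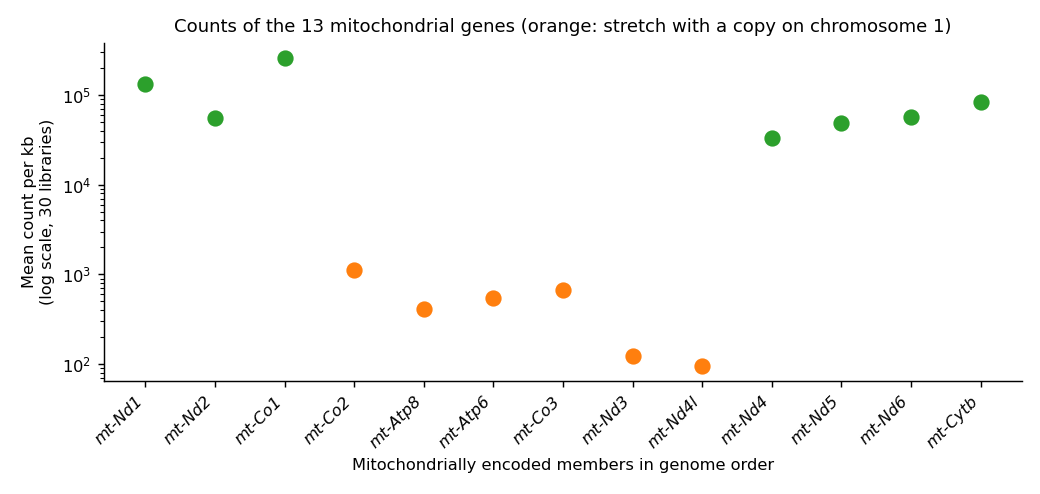
Mean count per kilobase over the 30 libraries (log scale) for the 13 mitochondrially encoded members in the order in which they lie in the mitochondrial genome. The 6 genes in orange, from mt-Co2 to mt-Nd4l, span the stretch copied on chromosome 1, where a full copy was found for 5 of them and not for mt-Atp8, and lie far below the 7 in green.

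Among the 7 mitochondrial genes outside the copied stretch, mt-Co1, which encodes the catalytic subunit of cytochrome c oxidase, held 47.1% of all fragments of the mitochondrial members, with a range of 44.6% to 51.6% over libraries. mt-Nd1 held 14.9%, mt-Cytb 11.5%, mt-Nd5 10.6%, mt-Nd2 6.87%, mt-Nd4 5.43% and mt-Nd6 3.47%. Per kilobase of whole gene, mt-Co1 reached a mean of 8784 CPM, and mt-Nd4 1137 CPM. How many fragments the copies took from these genes was not tested, so the 7 are not ranked. The most abundant nuclear members per kilobase were Atp5b and Atp5a1, the catalytic beta and the alpha subunit of ATP synthase, at 475 and 431 CPM, followed by Cox6a1 at 380 CPM and Cox8a at 345 CPM, both of cytochrome c oxidase. The length used holds all annotated exons of a gene and can exceed that of the transcript made, so this order is uncertain. The mitochondrial members together made up 2.38% to 3.47% of the counted fragments of a library, and the nuclear members 1.11% to 1.43%.

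Of the 112 members, 106 passed the filter on low counts and were tested, 93 nuclear and all 13 mitochondrial. The 6 not tested were Cox6a2, Cox8b and Cox8c, which belong to isoforms known from heart, skeletal muscle or testis, the pseudogenes Ndufa11b and Ndufb4c, and another entry of Atp5o, with means of 0 to 3.6 counts. A member is written as higher or lower below when edgeR's quasi-likelihood test over all 30 libraries gave it a Benjamini-Hochberg adjusted p under 0.05 among 19868 genes. Log2 fold changes are given with their standard errors (SE).

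The nuclear members were lower after auxin in PDS5AB, where 52 of 93 fell and 4 rose. That count was made with TMM scaling, which sets most genes level. It was the same, 52 and 4, with the scaling of DESeq2 and with the mitochondrial genes left out of the scaling. With libraries scaled by their total counts alone, an alternative chosen after seeing the data, 17 fell and 7 rose. The share lower, 55.9%, stood beside 20.2% of all tested genes lower in that comparison, 25.8% higher and 46.0% called in either direction. Their median log2 fold change was -0.23, against 0.04 over all genes. By total counts alone the medians were -0.07 and 0.19, with 12% of all genes lower and 35.6% higher, so that the scaling moved the median of all genes by 0.15. In that fit 25.2% of all calls were lower, against 43.9% with TMM. Members of every complex fell: 20 of 37 complex I genes fell, 4 of 8 assembly factors, 3 of 4 of complex II, 5 of 9 of complex III, 7 of 16 of complex IV and 13 of 17 of ATP synthase. In the libraries themselves the nuclear members summed to 13130, 14240 and 13235 CPM untreated and to 11052, 11765 and 11300 CPM after auxin. These sums did not overlap, but they carry TMM factors of 1.13 in the treated and 1.01 to 1.02 in the untreated libraries. As a share of all counted fragments they were 1.33%, 1.43% and 1.36% untreated and 1.25%, 1.33% and 1.27% after auxin, ranges which meet at 1.33%, with the auxin library the lower one in each of the 3 same-numbered pairs. Gene by gene, in TMM-scaled CPM, 54 of 93 nuclear members had all 3 treated values below all 3 untreated ones, a pattern that 23.2% of all genes showed. Fewer cells of one kind and less RNA per cell cannot be told apart in such bulk libraries.

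Auxin alone also went with lower nuclear members in TIR1, where no cohesin cofactor carries a degron. There 32 of 93 were lower and 1, Cox6b2, was higher, with a median of -0.20, against 9.59% of all genes lower, 10.4% higher and 19.9% called either way. The sums were 13267, 14444 and 13500 CPM untreated and 11647, 12486 and 12151 CPM after auxin. As shares of counted fragments they were 1.29% to 1.38% and 1.15% to 1.21%, also without overlap, and scaling by total counts alone gave 34 lower and 0 higher. Here 55 of 93 had all auxin values below all untreated ones, against 18.7% of all genes. This comparison crosses the 2 series of library numbers. The number called was 54 with the compared groups fitted alone, and fell from 33 to 8 without untreated library 2, to 9 without auxin library 1 and to 16 without auxin library 3.

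In WAPL, 10 nuclear members fell and 2 rose, a share called of 12.9% against 32.8% of all genes, of which 15.8% were lower and 17% higher. The count was 29 without auxin library 1 and 6 without untreated library 1, libraries in which the nuclear sums, 12894 and 13066 CPM, were the highest of their groups. The WAPL sums were 13066, 11847 and 11846 CPM untreated and 12894, 10736 and 10962 CPM after auxin, lower in each same-numbered pair but with overlapping ranges. As shares of counted fragments they were 1.25%, 1.16% and 1.17% and then 1.29%, 1.11% and 1.16%, higher in the first pair and lower in the others. PDS5AB-NIPBL had 1 member higher and 2 lower (3.23% against 19.5% of all genes, 11.4% higher and 8.06% lower), 7 with the replicate number as a block, and 5 without untreated library 2. In WAPL-NIPBL edgeR called 0 of 93 nuclear members, against 8.56% of all genes (5.11% higher and 3.45% lower), and 1 with the block. The nuclear sums in these 2 lines went from 12194 to 13286 CPM untreated to 11794 to 12432 CPM treated in PDS5AB-NIPBL, with overlapping ranges but lower in each of the 3 same-numbered pairs, and from 12016 to 12283 CPM to 11658 to 12001 CPM in WAPL-NIPBL, without overlap in TMM-scaled CPM. As a share of counted fragments the PDS5AB-NIPBL values were 1.26%, 1.18% and 1.21% untreated and 1.18%, 1.19% and 1.23% treated, lower in 1 of the 3 pairs, and both WAPL-NIPBL groups ranged from 1.16% to 1.20%. By total counts alone the nuclear calls were 6 higher and 5 lower in WAPL (21.8% and 10.6% of all genes), 2 and 1 in PDS5AB-NIPBL (13.5% and 5.96%) and 1 and 0 in WAPL-NIPBL (7.32% and 2.58%). The WAPL count was 5 with these groups alone, and the PDS5AB-NIPBL count was 6 in DESeq2 and 7 with no filter.

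**Figure D2:**
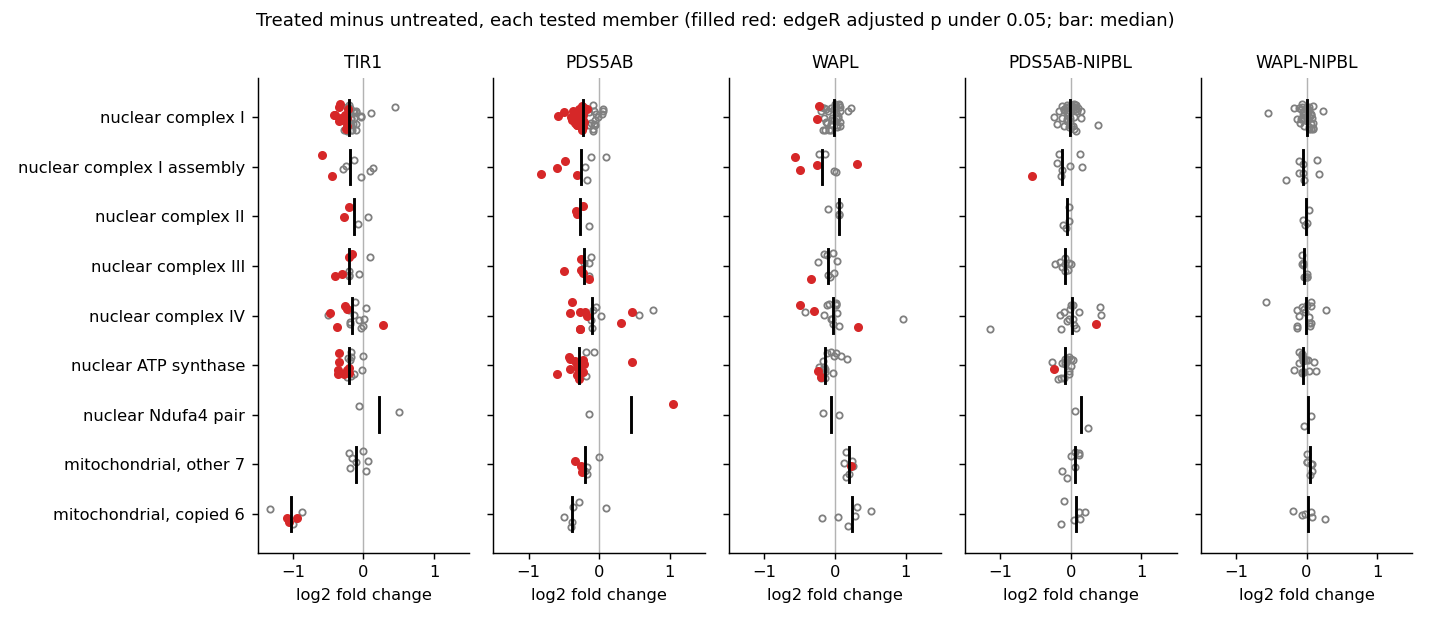
Log2 fold change, treated minus untreated, of each tested member in the 5 lines, by complex; filled red points passed the edgeR threshold and black bars are medians. The medians of the nuclear complexes lie left of 0 in TIR1 and PDS5AB and nearer to 0 in the other 3 lines, and the copied mitochondrial genes spread more widely than the other 7.

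Whether the PDS5AB effect exceeded that of auxin in TIR1 was tested gene by gene as a difference of effects. The difference was called for 9 of 93 nuclear members, 7 more negative and 2 more positive in PDS5AB, a share of 9.68% against 26.3% of all genes, 12.4% more negative and 13.9% more positive. The 7 were Ndufaf5, Ndufaf4, Atp5j, Ndufb10, Sdha, Uqcrb and Ndufab1, and the 2 were Cox8a and Ndufa3. Cox8a, a small subunit of cytochrome c oxidase, is one of the 2: it stood at 237, 249 and 229 CPM in untreated TIR1 and 167, 181 and 169 CPM after auxin, and at 256, 258 and 238 CPM and then 228, 241 and 238 CPM in PDS5AB. The Cox8a effects differed by 0.38 (SE 0.118, adjusted p = 0.0174), a call lost without untreated PDS5AB library 3 or TIR1 auxin library 1 or 3. By total counts alone 4 differences were more negative and 12 more positive, against 6.68% and 19.9% of all genes. Because untreated TIR1 and treated TIR1 come from different number series, each difference from the TIR1 effect, that of WAPL included, also carries that split.

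With NIPBL targeted as well, the effect in PDS5AB-NIPBL lay above that in PDS5AB for 13 nuclear members and below it for 1, Atp5s, together 15.1% of 93 against 9.44% of all genes (4.96% above and 4.48% below). Among the 13 were Ndufaf4, Ndufaf5, Ndufb10, Ndufc1, Ndufa13, Atp5g2, Cox7b, Cox5a, Atp5j, Ndufv2, Ndufa12 and Ndufab1, with differences of up to 0.67 (Ndufaf5) on the log2 scale. The untreated libraries of these 2 lines belong to different number series, and the count fell from 14 to 5 with scaling by total counts alone (3 above and 2 below), to 8 with these groups alone, to 4 without untreated PDS5AB library 2, to 5 without untreated PDS5AB-NIPBL library 2, to 6 without its treated library 3 and to 9 without its untreated library 3. Between WAPL-NIPBL and WAPL, both in the higher numbers, the effect differed for 2 nuclear members, Ndufaf4 and Uqcrfs1, both above, or 2.15% against 5.20% of all genes (3.04% above and 2.16% below). The WAPL effect differed from that in TIR1 for 8 nuclear members, 7 above and 1 below (8.60% against 20.7% of all genes, 9.86% above and 10.9% below), a count of 4 or 5 without TIR1 auxin library 1 or 3, untreated TIR1 library 2 or 3 or untreated WAPL library 2 or 3, of 17 without WAPL auxin library 2 and of 20, all above, with scaling by total counts alone.

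**Figure D3:**
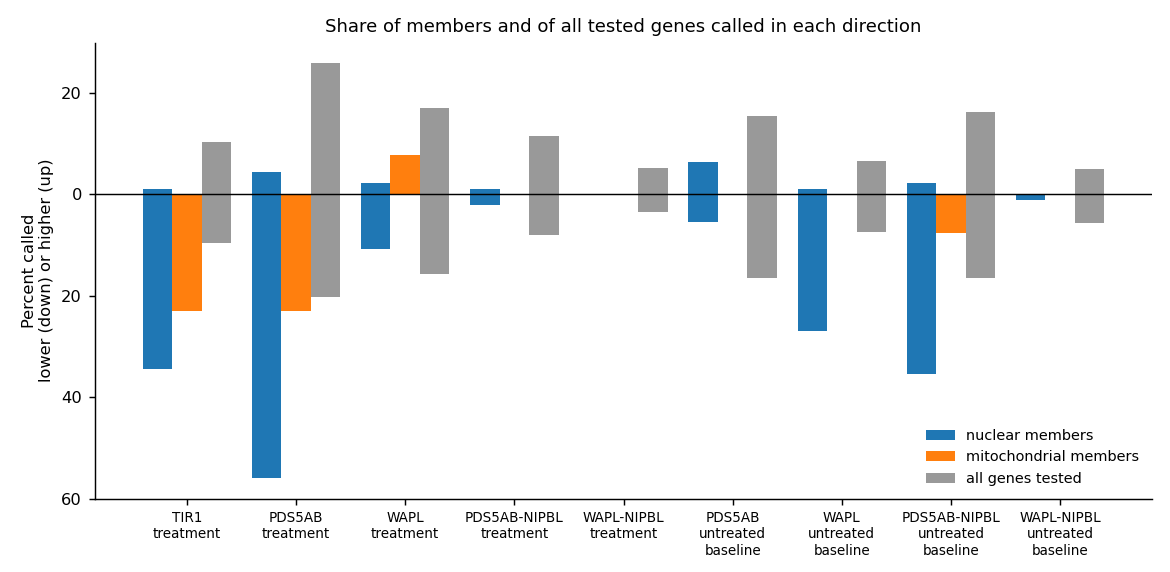
Percent of nuclear members, mitochondrial members and all tested genes called lower (bars down) or higher (bars up) in the 5 treatment effects and the 4 comparisons of untreated lines. Nuclear members exceed all genes on the lower side in the PDS5AB and TIR1 treatments and in the WAPL and PDS5AB-NIPBL baselines.

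The assembly factors of complex I, which join or modify its subunits without staying in the finished enzyme, held the nuclear member with the largest called decrease in each of the 4 lines that had one: Ndufaf3 in TIR1, Ndufaf5 in PDS5AB and Ndufaf6 in WAPL and PDS5AB-NIPBL. Ndufaf5, a methyltransferase-like factor that modifies the complex I subunit NDUFS7, stood at 15.2, 18.8 and 17.6 CPM in untreated PDS5AB and at 8.01, 11 and 9.95 CPM after auxin. All 3 treated libraries lay below all 3 untreated ones, and the log2 fold change was -0.83 (SE 0.105, adjusted p = 1.80e-07). Untreated TIR1 had 25.0, 26.4 and 30.3 CPM and TIR1 after auxin 25.7, 28.2 and 26.2 CPM, so the ranges of those 2 groups overlapped. The PDS5AB effect was more negative than that in TIR1 by 0.80 on the log2 scale (adjusted p = 0.000114). In PDS5AB-NIPBL the values were 20.5, 19.3 and 20.2 CPM untreated and 17.1, 17.7 and 18.8 CPM treated, and the effect there was 0.67 above that in PDS5AB (SE 0.147, adjusted p = 0.00348). Over all 30 libraries Ndufaf5 was lowest in the 3 PDS5AB libraries given auxin.

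Ndufaf4, another complex I assembly factor, stood at 38.2, 48.2 and 47.8 CPM in untreated PDS5AB and 29.2, 32.1 and 34.1 CPM after auxin, a log2 fold change of -0.49 (SE 0.0821, adjusted p = 1.19e-05). WAPL libraries went from 48.9, 43.2 and 44.7 CPM to 38.4, 40.2 and 35.9 CPM (log2 fold change -0.26, adjusted p = 0.0147). That WAPL call was lost without auxin library 3, without untreated library 1 with the WAPL groups fitted alone or with scaling by total counts alone (largest adjusted p 0.116 over the alternatives). In the combined lines the direction was the other way: 50.8, 51.0 and 47.0 CPM untreated and 57.6, 53.6 and 55.3 CPM treated in PDS5AB-NIPBL, and 43.3, 46.6 and 47.8 CPM against 51.6, 51.6 and 50.2 CPM in WAPL-NIPBL. The treated libraries lay above the untreated ones in both, though neither effect alone was called. The differences of effects were called: 0.66 for PDS5AB-NIPBL minus PDS5AB (SE 0.116, adjusted p = 0.000391) and 0.41 for WAPL-NIPBL minus WAPL (SE 0.115, adjusted p = 0.0300). The latter was lost in 7 of 19 alternatives, which left out any of the 3 treated WAPL-NIPBL libraries, its untreated library 1, WAPL auxin library 3, WAPL untreated library 1 or the filter on low counts.

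Ndufaf6, also needed to assemble complex I, was lower after treatment without overlap in all 5 lines and was called in 3. PDS5AB went from 14.2, 15.9 and 15.9 CPM to 10.5, 8.91 and 10.9 CPM (log2 fold change -0.60, SE 0.113, adjusted p = 5.61e-05). WAPL went from 15.8, 13.3 and 15.9 CPM to 12.5, 9.32 and 8.82 CPM, and PDS5AB-NIPBL from 12.7, 11.7 and 14.5 CPM to 8.24, 9.04 and 9.41 CPM. The log2 fold changes were -0.56 and -0.55 with adjusted p of 0.000244 and 0.000993. In none of the 3 lines did the treated and untreated values overlap, and each call was kept in all 13 alternatives run for it. The other 2 lines were not called: TIR1 had 16.8, 16.2 and 16.4 CPM untreated and 13, 14.1 and 13.4 CPM after auxin (log2 fold change -0.29, adjusted p = 0.0646), and WAPL-NIPBL 13.3, 12.2 and 13.4 CPM and then 11.6, 10.5 and 9.74 CPM (-0.29, adjusted p = 0.124). The PDS5AB and WAPL effects on Ndufaf6 differed from that in TIR1 by -0.32 and -0.27, which did not pass the test (adjusted p = 0.140 and 0.233). Ndufaf2, an assembly factor that is a relative of the subunit NDUFA12, fell in WAPL from 18.9, 17.5 and 18.0 CPM to 13.6, 11.8 and 13.2 CPM (log2 fold change -0.49, SE 0.0979, adjusted p = 0.000213). It shares sequence on the opposite strand with Smim15, and in a count without strand, read pairs that fell on both genes were not counted for either. Ndufaf7, a methyltransferase, rose in WAPL from 11, 11.9 and 10.6 CPM to 14.6, 13.5 and 13.4 CPM (log2 fold change 0.31, adjusted p = 0.00964, and 0.0719 with no filter on low counts).

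**Figure D4:**
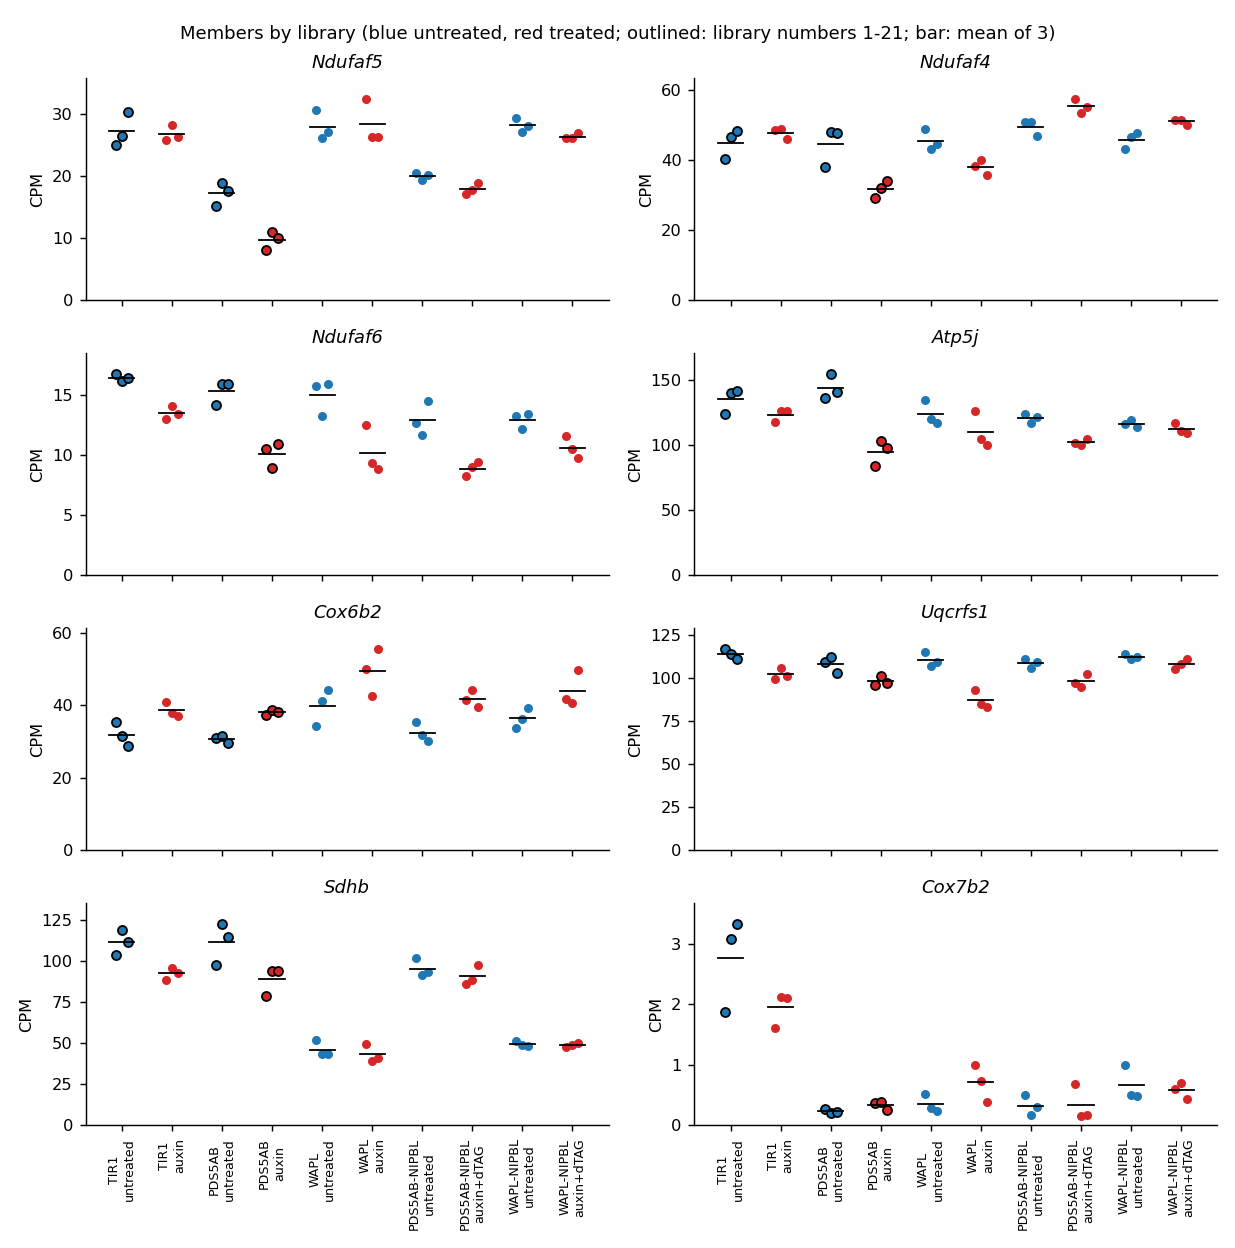
CPM of 8 members in each of the 30 libraries (blue untreated, red treated, outlined for library numbers 1 to 21, bars for the mean of 3). Ndufaf5 is lowest in PDS5AB after auxin, Ndufaf6 is lower in the treated libraries of all 5 lines, Sdhb is low in all groups of the 2 WAPL lines, and Cox7b2 is above 1 CPM only in TIR1.

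Among the structural subunits of complex I, Ndufb10, an accessory subunit of the membrane arm, fell most clearly in PDS5AB, from 63.5, 61.0 and 55.1 CPM to 41.8, 39.3 and 38.4 CPM (log2 fold change -0.59, SE 0.0890, adjusted p = 2.97e-06). The treated values lay below the untreated ones, and the effect differed from that of PDS5AB-NIPBL by 0.54 (adjusted p = 0.00576). Ndufa5, an accessory subunit of the matrix arm, was lower in TIR1, PDS5AB and WAPL with log2 fold changes of -0.26, -0.31 and -0.26. The PDS5AB call of Ndufa5 was lost with scaling by total counts alone (adjusted p = 0.138). The TIR1 call was lost without the filter or without any library except untreated library 1, and the WAPL call with total counts alone, with these groups alone or without auxin library 2 or 3 or untreated library 1 (largest adjusted p 0.231 and 0.187). Ndufv2, which carries an iron-sulphur centre near the NADH site, was lower in the same 3 lines by 0.22 to 0.40 on the log2 scale. Sdha, the flavin-binding subunit of complex II, went from 291, 293 and 286 CPM to 232, 241 and 229 CPM in PDS5AB (log2 fold change -0.31, SE 0.0518, adjusted p = 1.33e-05), while in TIR1 it stood at 255, 273 and 269 CPM untreated and 274, 280 and 278 CPM after auxin. The difference between these effects was -0.37 (SE 0.0732, adjusted p = 0.000339).

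Uqcrfs1, the Rieske iron-sulphur protein of complex III, was the member of complex III called in WAPL. It fell there from 115, 107 and 109 CPM to 93.0, 85.1 and 83.0 CPM (log2 fold change -0.34, SE 0.0548, adjusted p = 1.19e-05), with no overlap. Auxin alone in TIR1 also went with lower Uqcrfs1, 117, 114 and 111 CPM against 99.5, 106 and 101 CPM (-0.16, adjusted p = 0.0416), a call lost without the filter or without any of the 6 libraries. PDS5AB had 109, 112 and 103 CPM and then 95.7, 101 and 97.1 CPM (-0.14, adjusted p = 0.0322), a change of 0.01 when libraries were scaled by total counts alone. The WAPL effect on Uqcrfs1 differed from that in TIR1 by -0.19, which did not pass the test (adjusted p = 0.0860). The WAPL-NIPBL values, 114, 111 and 112 CPM untreated and 105, 108 and 111 CPM treated, touched, and the 2 effects differed by 0.29 (SE 0.0774, adjusted p = 0.0219). That difference was lost in 8 of 19 alternatives, which left out WAPL auxin library 3, WAPL untreated library 1, library 2 or 3 of either WAPL-NIPBL group or the filter, or fitted these groups alone. Cox5a, a matrix-side subunit of complex IV, was lower in PDS5AB, WAPL and TIR1, by 0.42, 0.30 and 0.24 on the log2 scale.

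In ATP synthase, Atp5j, which encodes coupling factor 6 in the peripheral stalk, fell in PDS5AB from 136, 155 and 141 CPM to 84.0, 103 and 97.6 CPM (log2 fold change -0.60, SE 0.0791, adjusted p = 3.32e-07). It also fell in PDS5AB-NIPBL, from 124, 117 and 122 CPM to 102, 100 and 105 CPM (log2 fold change -0.24, SE 0.0794, adjusted p = 0.0294), a call lost with scaling by total counts alone and without any of 5 of its 6 libraries, the exception being untreated library 2. Atp5j and Gabpa, the gene of the DNA-binding subunit of GABP, overlap on opposite strands of chromosome 16 at their starts. Gabpa fell by a like amount in PDS5AB (log2 fold change -0.59, SE 0.0690), from a mean of 164 CPM to 109 CPM. As the count was without strand, read pairs that fell on both genes were not counted for either. The part of the overlap in these values was not tested. Atp5s, which encodes coupling factor B, was one of the few members higher in PDS5AB: 4.38, 5.35 and 6.56 CPM against 6.30, 7.84 and 8.32 CPM (log2 fold change 0.46, adjusted p = 0.0109), with overlapping ranges and with the call lost without auxin library 3, without untreated library 1 or with PDS5AB fitted alone. Atp5mpl, a small subunit of the membrane part, gave the widest of the 8 nuclear differences between WAPL and TIR1 (0.51, SE 0.122, adjusted p = 0.00277, kept in all 19 alternatives). It read 65.7, 77.7 and 67.2 CPM untreated and 51.0, 61.5 and 53.9 CPM after auxin in TIR1, without overlap, and 63.7, 59.3 and 56.2 CPM and then 78.0, 62.8 and 61.7 CPM in WAPL, with overlap.

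Several subunits have an alternative form known from particular tissues. In these cells the widespread forms were the abundant ones: per kilobase Cox6b1 averaged 270 CPM and Cox6b2 34.7 CPM, Cox4i1 197 and Cox4i2 1.83 CPM, Cox7a2 105 and Cox7a1 19.9 CPM, Cox7b 149 and Cox7b2 1.52 CPM, and Ndufa4 123 and Ndufa4l2 18.1 CPM. Of the 3 genes for the identical c subunit of the ATP synthase rotor, Atp5g3 averaged 124 CPM per kilobase, Atp5g2 67.3 and Atp5g1 41.6. The order of the last 2 depends on the exon length used, 1675 bases for Atp5g2 and 4912 bases for Atp5g1. In mean counts Atp5g1 stood above Atp5g2, at 5938.2 against 3295.1, with Atp5g3 at 7868.3. All 3 fell in PDS5AB, by 0.31, 0.41 and 0.29 on the log2 scale, and the Atp5g1 ranges overlapped. With scaling by total counts alone the Atp5g3 and Atp5g1 calls were lost (adjusted p = 0.0509 and 0.319), and the Atp5g1 call was also lost without auxin library 2 or 3 or untreated library 1 or 2. Cox6a1, Cox7a2l and Ndufa4 were called in 0 of the 5 treatment effects.

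Cox6b2, the form of subunit 6B known from testis, was higher after treatment in 4 of the 5 lines. The values were 35.5, 31.7 and 28.7 CPM untreated and 41, 38 and 37.1 CPM after auxin in TIR1 (log2 fold change 0.27, adjusted p = 0.0474). PDS5AB had 30.9, 31.7 and 29.7 CPM and then 37.4, 38.8 and 38.3 CPM (0.31, adjusted p = 0.0108). WAPL had 34.3, 41.1 and 44.2 CPM and then 50.2, 42.7 and 55.7 CPM, the one of these lines with overlapping ranges (0.32, adjusted p = 0.0128), and its call was lost without auxin library 3, without untreated library 1 or with the WAPL groups alone. PDS5AB-NIPBL had 35.3, 31.8 and 30.3 CPM and then 41.5, 44.4 and 39.7 CPM (0.36, adjusted p = 0.00867, lost without untreated library 3), and WAPL-NIPBL 33.9, 36.2 and 39.4 CPM and then 41.9, 40.7 and 49.7 CPM (0.27, adjusted p = 0.0845). The effects in PDS5AB and WAPL stood 0.04 above that in TIR1 in each case (SE 0.140 and 0.139), differences that did not pass the test. The TIR1 call was lost in 5 of 6 fits that left out a library, the exception being untreated library 1, and also with scaling by total counts alone, and the PDS5AB call was kept in all 13 alternatives.

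Ndufa4l2, a gene known for its induction under low oxygen, was the member with the largest called rise: 5.86, 9.71 and 9.16 CPM in untreated PDS5AB and 15.2, 18.5 and 17.5 CPM after auxin (log2 fold change 1.05, SE 0.370, adjusted p = 0.0210). The call was lost without auxin library 2 or untreated library 1, and in untreated TIR1 the 3 libraries alone ranged from 6.60 to 19.6 CPM. Per kilobase, untreated PDS5AB had the lowest mean of the 10 groups, 7.53 CPM, so the rise starts from a low value. Untreated PDS5AB-NIPBL was called higher than untreated PDS5AB by 1.46 on the log2 scale, in a comparison that crosses the number series. Ndufa4l2 overlaps Shmt2 on the opposite strand. Cox7a1, the heart and muscle form of subunit 7A, rose in PDS5AB from 6.57, 8.79 and 7.94 CPM to 8.95, 11.7 and 11.7 CPM (log2 fold change 0.47, adjusted p = 0.0183) and fell in WAPL from 11.9, 11.5 and 9.48 CPM to 9.62, 7.01 and 6.80 CPM (-0.50, adjusted p = 0.0191). Each of these calls was lost when any of 3 (PDS5AB) or 4 (WAPL) single libraries was left out. The 5 muscle markers summed to 3.60 to 5.49 CPM in untreated and 6.20 to 7.60 CPM in treated PDS5AB. In WAPL, where Cox7a1 fell, they were also higher after auxin, at 2.82 to 2.91 and then 4.49 to 6.07 CPM, and their part in the Cox7a1 values was not tested.

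Untreated lines differed from one another in single members by more than the called treatment effects. Sdhb, the iron-sulphur subunit of complex II, stood at 104, 119 and 112 CPM in untreated TIR1 and at 52.1, 43.2 and 43.2 CPM in untreated WAPL (log2 fold change -1.27, SE 0.0912, adjusted p = 3.65e-11). Treatment left Sdhb at 39.4 to 49.3 CPM in WAPL, and the 6 WAPL-NIPBL libraries, treated or not, held 47.8 to 51.4 CPM. The other 3 lines ranged from 79.0 to 123 CPM over all their libraries, so the 12 libraries of the 2 WAPL lines lay apart from the other 18. Of its partners in complex II, Sdhd was lower in untreated WAPL by 0.29 on the log2 scale (adjusted p = 0.00551), whereas Sdha and Sdhc had log2 fold changes of 0.03 and 0.08 that were not called. Cox7b2, another testis form, read 1.61 to 3.33 CPM in the 6 TIR1 libraries and 0.151 to 0.996 CPM in the other 24 (log2 fold change -3.57 for untreated PDS5AB and -2.94 for untreated WAPL against TIR1, adjusted p = 3.81e-08 and 3.42e-06), on a mean of 24.7 counts.

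Against untreated TIR1, untreated PDS5AB had 6 nuclear members higher and 5 lower, 11.8% against 32% of all genes (15.5% higher and 16.5% lower). By total counts alone 18 were higher and 4 lower, against 19.6% of all genes higher and 13.3% lower, and with the replicate number as a block 17 were called. Both groups belong to the lower library numbers. Atp5e, the epsilon subunit of the ATP synthase central stalk, was at 83.4, 90.4 and 82.2 CPM in PDS5AB and 51.7, 56.2 and 51.0 CPM in TIR1 (log2 fold change 0.69, SE 0.0858, adjusted p = 1.68e-07). Ndufa9, a subunit of the matrix arm of complex I, was also higher, at 118, 137 and 129 CPM against 97.0, 106 and 104 CPM (log2 fold change 0.32, adjusted p = 0.000659). Cox7a1 was lower (6.57 to 8.79 CPM against 13.8 to 19.4 CPM, log2 fold change -1.12, adjusted p = 2.09e-06), as was Ndufaf5 (-0.66, adjusted p = 4.19e-06). Ndufaf5 was therefore below the TIR1 range before auxin as well as after it.

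Untreated WAPL had 1 nuclear member higher and 25 lower than untreated TIR1 (28% against 14% of all genes, 6.62% higher and 7.39% lower), and untreated PDS5AB-NIPBL 2 higher and 33 lower than untreated PDS5AB (37.6% against 32.7% of all genes, 16.2% higher and 16.6% lower). By total counts alone the latter had 1 higher and 50 lower, against 21.5% of all genes lower. Both comparisons cross the number series, and in both, as in the TIR1 auxin effect, the group with the higher numbers was the lower one. The WAPL count was 40 with the replicate number as a block, and fell to 8 without untreated TIR1 library 2 or WAPL library 3, 12 without WAPL library 2 and 17 without TIR1 library 3, and the PDS5AB-NIPBL count to 19 or 20 without library 2 of either group. Ndufaf3, an assembly factor that overlaps Impdh2, gave one of the larger decreases, from 17.1, 20.3 and 18.3 CPM in PDS5AB to 8.89, 9.48 and 10.9 CPM in PDS5AB-NIPBL (log2 fold change -0.92, SE 0.119, adjusted p = 6.93e-07). In the TIR1 auxin effect the same gene went from 16.2, 16.8 and 16.9 CPM to 9.08, 11.7 and 12.3 CPM (-0.59, adjusted p = 0.000578). Within the higher numbers, untreated WAPL-NIPBL differed from untreated WAPL in 1 nuclear member, Atp5s (1.08% against 10.7% of all genes, 4.99% higher and 5.67% lower), a call lost without the filter or without any of its 6 libraries except WAPL-NIPBL library 2.

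Among the mitochondrially encoded members of PDS5AB, 3 of 13 were lower after auxin (23.1% against 20.2% of all genes lower): mt-Nd1, mt-Nd2 and mt-Cytb, which encode core subunits of complexes I and III. mt-Nd1 went from 4893, 4315 and 4437 CPM to 3647, 3392 and 3691 CPM (log2 fold change -0.35, SE 0.108, adjusted p = 0.00890) and mt-Nd2 from 2142, 2020 and 2052 CPM to 1727, 1664 and 1842 CPM (-0.25, SE 0.0815, adjusted p = 0.0133). mt-Cytb went from 4181, 3571 and 3501 CPM to 3258, 2986 and 3165 CPM (-0.26, SE 0.106, adjusted p = 0.0454). In all 3 the treated libraries lay below the untreated ones. mt-Co1, at 14683, 14847 and 13712 CPM untreated and 13404, 14530 and 14967 CPM after auxin, had overlapping ranges and a log2 fold change of -0.01. Without auxin library 2 the calls of mt-Nd2 and mt-Cytb were lost, leaving mt-Nd1, and the mt-Cytb call was also lost without auxin library 3, without untreated library 1 or in DESeq2. The count of 3 was 9 with no filter and 6 with these groups alone. With scaling by total counts alone 0 of the 13 were called in PDS5AB, and the adjusted p was 0.108 for mt-Nd1, 0.285 for mt-Nd2 and 0.401 for mt-Cytb.

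In WAPL the median log2 fold change of the 13 mitochondrial members was 0.20, against 0.004 over all genes. These members include the 6 of the copied stretch, whose counts are uncertain, and only 1 of the 13 passed the test. The one called was mt-Co1 (7.69% against 17% of all genes higher), from 13480, 12019 and 12463 CPM to 15648, 13585 and 14887 CPM (log2 fold change 0.22, SE 0.0764, adjusted p = 0.0284), and the count was 3 with the replicate number as a block, 5 with no filter and 2 with these groups alone. By total counts alone it was 4, mt-Co1, mt-Nd2, mt-Nd5 and mt-Nd6. The mt-Co1 call was lost without auxin library 1 or without untreated library 2 or 3, and the count was 3 without auxin library 2 or 3 or untreated library 1. mt-Nd2 had 2053, 1778 and 1810 CPM untreated and 2446, 2077 and 1947 CPM after auxin, which did not pass the test (adjusted p = 0.0622), but its WAPL effect lay above its TIR1 effect by 0.40 (SE 0.115, adjusted p = 0.0123). That difference carries the number series that split TIR1. It was called for 2 of 13 mitochondrial members, mt-Co2 and mt-Nd2 (15.4% against 9.86% of all genes above), and for 1 to 3 with a library left out. The mt-Nd2 effect in PDS5AB-NIPBL likewise lay above that in PDS5AB, by 0.37 (SE 0.115, adjusted p = 0.0378), a call lost in 9 of 19 alternatives: scaling by total counts alone (largest adjusted p 0.0883), any untreated PDS5AB library, PDS5AB auxin library 2, untreated PDS5AB-NIPBL library 2 or 3, or its treated library 1 or 3 left out. In PDS5AB-NIPBL and WAPL-NIPBL edgeR called 0 of 13, against 19.5% and 8.56% of all genes, with medians of 0.06 and 0.05. mt-Nd5, mt-Nd4 and mt-Nd6 were called in 0 of the 5 treatment effects with TMM scaling, and mt-Nd5 ranged from 2522 to 3884 CPM and mt-Nd4 from 1299 to 1974 CPM over all 30 libraries.

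In TIR1 the 3 mitochondrial members called lower after auxin, mt-Atp6, mt-Co3 and mt-Nd3, all belong to the 6 of the copied stretch, and 0 were called among the other 7 (23.1% of 13 against 9.59% of all genes lower). mt-Atp6 read 13, 23.3 and 14 CPM untreated and 8.75, 6.62 and 8.32 CPM after auxin (log2 fold change -1.08, adjusted p = 0.00974), mt-Co3 23.7, 25.9 and 21.3 CPM and then 12.5, 10.9 and 13.5 CPM (-0.94, adjusted p = 0.0447), and mt-Nd3 1.84, 2.02 and 2.05 CPM and then 1.15, 0.723 and 0.977 CPM (-1.06, adjusted p = 0.0482), all by edgeR. mt-Atp8 lay between 1.27 and 5.37 CPM over the 30 libraries and was called in 0 of 5 treatment effects. The 5 chromosome 1 copies summed to 162 to 216 CPM untreated and 91.0 to 123 CPM after auxin in the same libraries. The 6 members summed to 62.7 to 94.9 CPM and then 33.5 to 42 CPM, while the other 7 summed to 26129 to 31175 CPM and then 26572 to 29384 CPM, with overlapping ranges. The mt-Co3 and mt-Nd3 calls were each lost without any 1 of the 6 libraries and with scaling by total counts alone, the mt-Co3 call also in DESeq2, and the mt-Atp6 call without auxin library 2 or untreated library 2. The count of 3 was 6 with no filter, 5 with the replicate number as a block and 8 with these groups alone. Between untreated lines 1 mitochondrial member was called, mt-Co3, also of the copied stretch, at a mean of 15.2 CPM in PDS5AB-NIPBL and 29 CPM in PDS5AB (log2 fold change -0.93, SE 0.333, adjusted p = 0.0311) in a comparison that crosses the number series, or 7.69% of 13 against 16.6% of all genes lower. That call was lost in DESeq2 and without untreated library 1 or 3 of PDS5AB-NIPBL or library 1 or 2 of PDS5AB. The uncertain count of these genes holds for every comparison in which they appear.

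**Figure D5:**
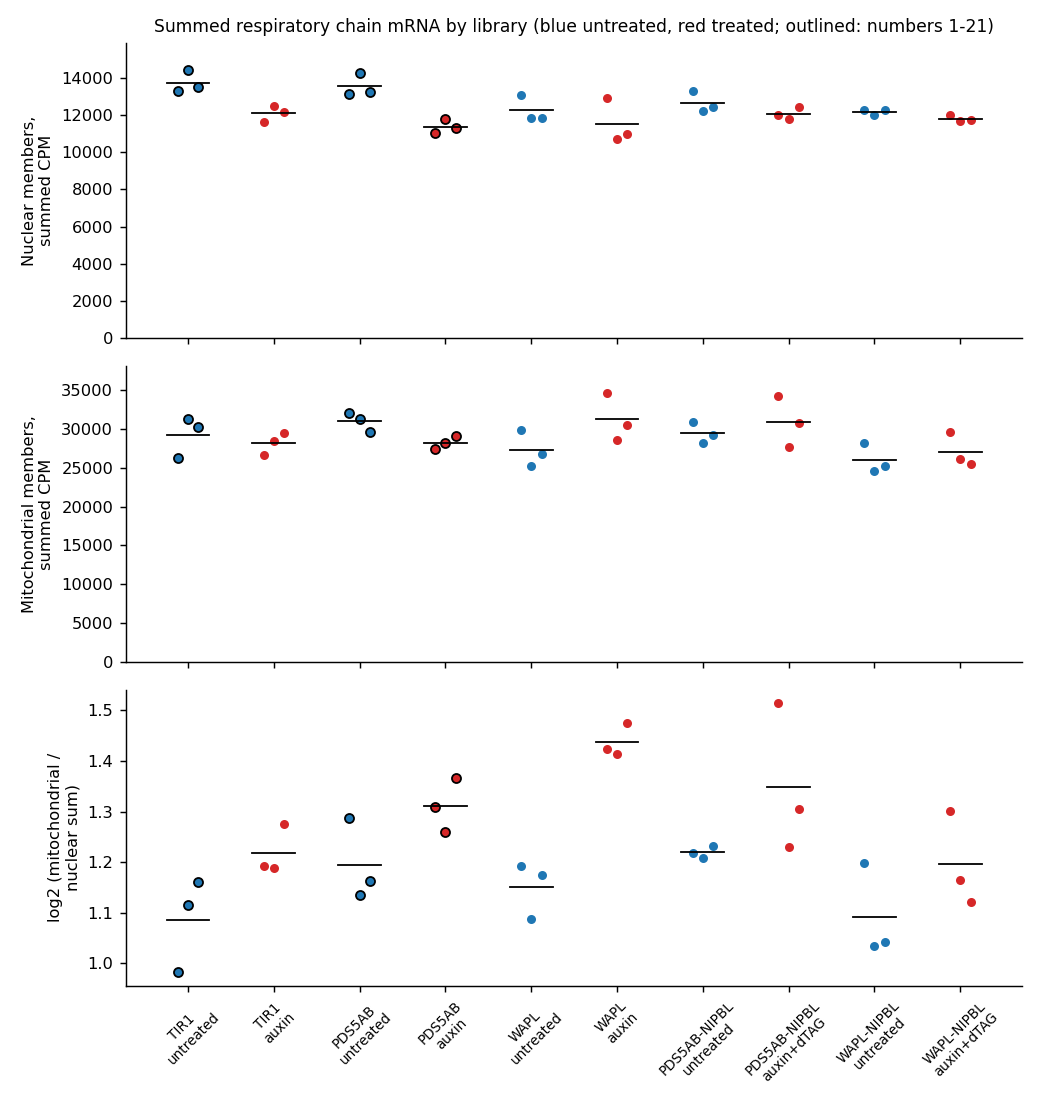
Summed CPM of the nuclear members (top) and of the mitochondrial members (middle), and the log2 ratio of mitochondrial to nuclear sums (bottom), for each library by group (bars for the mean of 3, outlines for library numbers 1 to 21). The nuclear sums are highest in untreated TIR1 and PDS5AB, and the WAPL auxin libraries stand above the untreated WAPL libraries in the ratio.

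The ratio of the 2 sets, formed within each library and so independent of library scaling, was on average higher after treatment in all 5 lines. WAPL showed the widest gap: log2 ratios of 1.19, 1.09 and 1.17 untreated and 1.42, 1.41 and 1.48 after auxin, a change of 0.29 with a pooled SD of 0.0462 and no overlap. In TIR1 the ratios went from 0.98, 1.11 and 1.16 to 1.19, 1.19 and 1.28, a change of 0.13 with no overlap. The changes were 0.12 in PDS5AB, 0.13 in PDS5AB-NIPBL and 0.10 in WAPL-NIPBL, each with overlapping ranges over all libraries of the 2 groups. Without 1 library the change was 0.05 in PDS5AB-NIPBL (treated library 1), 0.05 in WAPL-NIPBL (treated library 1) and 0.08 in TIR1 (untreated library 1). Between same-numbered libraries, which pair in the degron lines, the ratio was higher after treatment in every pair: by 0.23, 0.33 and 0.30 in WAPL, 0.02, 0.12 and 0.20 in PDS5AB, 0.30, 0.02 and 0.07 in PDS5AB-NIPBL, and 0.10, 0.13 and 0.08 in WAPL-NIPBL. With the mean log2 CPM over members of at least 50 counts in place of the sums, so that each member weighs the same, the change was -0.19 in TIR1, -0.06 in PDS5AB, 0.01 in PDS5AB-NIPBL, 0.03 in WAPL-NIPBL and 0.25 in WAPL. That mean includes mt-Co2, mt-Atp8, mt-Atp6 and mt-Co3 of the copied stretch, whose counts are uncertain, each at the same weight as the other mitochondrial members. In TIR1 the log2 fold changes of these genes ran from -0.87 to -1.08, and their part in the change of -0.19 was not tested. The ratios and means are a description without a test.

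Sets of genes that serve the chain without belonging to the list were counted the same way, with TMM scaling. In PDS5AB, 24 of 33 tested genes of the mitochondrial DNA and RNA machinery fell and 2 rose, against 20.2% and 25.8% of all genes, with a median log2 fold change of -0.28. Among those that fell were Tfam, which packages mitochondrial DNA (mean 79.8 to 62.1 CPM, log2 fold change -0.36, adjusted p = 5.07e-05), Ssbp1, its single-strand binding protein (-0.66, adjusted p = 1.72e-07), Tefm, the elongation factor of mitochondrial transcription (-0.59, adjusted p = 3.98e-06), and Lrpprc, which stabilises mitochondrial mRNA (-0.35, adjusted p = 2.42e-06). In TIR1 3 of these 33 fell and 2 rose (9.59% of all genes lower), in WAPL 8 fell and 1 rose (15.8%), in PDS5AB-NIPBL 8 fell and 2 rose (8.06%), and in WAPL-NIPBL 0 fell and 1 rose (3.45%). The PDS5AB effect was more negative than the TIR1 effect for 14 of the 33, against 12.4% of all genes. Assembly factors outside the list fell in 13 of 37 cases in PDS5AB and 8 of 37 in TIR1, beside the same 20.2% and 9.59%, and rose in 0 in either line. In WAPL 7 of the 37 fell and 0 rose, in PDS5AB-NIPBL 6 fell and 3 rose, and in WAPL-NIPBL 1 fell. Of 7 tested regulators of these genes, Gabpa, Pprc1, Nrf1 and Yy1 fell in PDS5AB (20.2% of all genes lower), Yy1 by 0.14 on the log2 scale. In WAPL Gabpa, Pprc1 and Yy1 fell and Ppargc1b rose, in TIR1 Nrf1 fell and Gabpa rose, in PDS5AB-NIPBL Gabpa fell, and in WAPL-NIPBL 0 of the 7 were called. Of 6 electron carriers and feeders, Cycs, Dhodh and Gpd2 fell in PDS5AB and Etfdh rose. Etfdh also rose in WAPL, PDS5AB-NIPBL and WAPL-NIPBL, Dhodh fell in WAPL, and Gpd2 fell in TIR1, PDS5AB-NIPBL and WAPL-NIPBL.

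The embryonic stem cell markers summed to lower values after treatment in the 4 degron lines, without overlap: 6787 to 7374 CPM untreated and 4488 to 4790 CPM after auxin in PDS5AB, 6672 to 6926 and 5153 to 5348 CPM in WAPL, 7063 to 7425 and 5848 to 6235 CPM in PDS5AB-NIPBL, and 6735 to 6848 and 5561 to 5716 CPM in WAPL-NIPBL. In TIR1 the ranges, 6764 to 7102 and 6508 to 6974 CPM, overlapped. The 5 primitive endoderm markers summed to 23.6 to 26.3 CPM untreated and 57.9 to 70.5 CPM treated in PDS5AB, to 9.80 to 12.7 and 36.7 to 52.2 CPM in WAPL, to 10 to 12.4 and 29.6 to 35 CPM in PDS5AB-NIPBL, to 5.39 to 5.87 and 13.6 to 15.3 CPM in WAPL-NIPBL and to 7.37 to 7.97 and 9.72 to 11 CPM in TIR1. The 4 trophoblast markers summed to 5.24 to 7.58 and 24.8 to 25.6 CPM in PDS5AB and to 2.30 to 2.95 and 11.3 to 12.5 CPM in TIR1, and were higher without overlap in the other 3 lines too, with treated values of 9.06 to 15.2 CPM against 4.92 to 8.82 CPM. The 7 fibroblast markers summed to 27.2 to 30 and 40.4 to 42.4 CPM in PDS5AB. In WAPL the fibroblast markers went from 23.8 to 24.9 CPM down to 16.4 to 19.2 CPM, and in TIR1 the 4 neural markers from 133 to 154 CPM down to 93.4 to 101 CPM, both without overlap. The neural markers were also lower in PDS5AB (74.6 to 87.5 and then 53.9 to 74 CPM). The 4 mesoderm markers were lower after auxin in PDS5AB (19.5 to 31.2 and then 17.2 to 19 CPM) and higher after treatment in WAPL (9.55 to 12.4 and then 15 to 18 CPM) and WAPL-NIPBL (14.2 to 17 and then 18.4 to 23.4 CPM). The muscle markers were higher in PDS5AB-NIPBL (1.86 to 2.39 and then 2.93 to 3.55 CPM) and WAPL-NIPBL (2.97 to 3.06 and then 3.61 to 4.37 CPM) as well as in PDS5AB and WAPL. None of these ranges overlapped. The part of these markers in the values of the respiratory chain genes was not tested.

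Promoter windows of 250 bases before to 50 bases after a start (RefSeq, GRCm38.p6) were at hand for 74 distinct nuclear members. The NRF1 motif, a palindrome that reads the same on both strands and is the run in capitals in the Ndufaf4 sequence, occurred in 7 of them (9.46%, against 1.07% of 27025 genes). The ETS motif CCGGAAG, the core that GABP binds, occurred on either strand in 18 (24.3% against 9.93%), and the YY1 motif AAGATGGCG in 8 (10.8% against 1.64%). Each was searched on both strands and counted whether or not it overlapped a match of another. Of the tested members with each motif, 4 of 7 (NRF1), 8 of 18 (ETS) and 7 of 8 (YY1) fell in PDS5AB, against 38 of 66, 34 of 55 and 35 of 65 of those without it. In TIR1 the counts with and without the motif were 2 of 7 and 25 of 66 (NRF1), 7 of 18 and 20 of 55 (ETS) and 4 of 8 and 23 of 65 (YY1). In WAPL they were 1 of 7 and 8 of 66, 0 of 18 and 9 of 55, and 0 of 8 and 9 of 65. Of all tested genes 20.2% were lower in PDS5AB, 9.59% in TIR1 and 15.8% in WAPL, and the share among all genes with each motif was not counted. These counts use TMM scaling, and by total counts alone 17 instead of 52 nuclear members were lower in PDS5AB. Groups of 7 and 8 members are too small to compare with the rest. A match is a run of letters, not a bound site.

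The 150 bases before the start are shown for the assembly factors Ndufaf4 and Ndufaf5, whose effects in PDS5AB and PDS5AB-NIPBL differed, and for Cox6b2, which rose in 4 lines, with any of the 3 motifs in capitals. Ndufaf4 lies at chr4:24897933-24898082 on the plus strand and holds the NRF1 motif, Ndufaf5 at chr2:140170496-140170645 on the plus strand, where its NRF1 match falls after the start and so outside the run, and Cox6b2 at chr7:4753095-4753244 on the minus strand, with none of the 3 in its window.
Ndufaf4: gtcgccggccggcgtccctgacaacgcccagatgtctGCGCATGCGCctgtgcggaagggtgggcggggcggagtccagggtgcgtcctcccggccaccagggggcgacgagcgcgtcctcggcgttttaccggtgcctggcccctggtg
Ndufaf5: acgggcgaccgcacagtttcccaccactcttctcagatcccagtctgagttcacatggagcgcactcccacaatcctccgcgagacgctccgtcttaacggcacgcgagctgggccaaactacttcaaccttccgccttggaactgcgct
Cox6b2: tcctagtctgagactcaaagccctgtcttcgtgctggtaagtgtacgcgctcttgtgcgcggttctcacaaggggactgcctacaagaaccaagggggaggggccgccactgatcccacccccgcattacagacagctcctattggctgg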

How the data were processed

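The authors deposited 1 table of raw read counts per gene for 30 libraries of stranded poly(A) RNA. Per the submitters' processing notes, adapters were trimmed with cutadapt, reads aligned with STAR 2.7.7a and counted with featureCounts 2.0.1 on GENCODE vM23 (GRCm38); per the file headers, the counting was by read pair with no strand option, and pairs that map to several places or genes were not counted. Symbols came from GENCODE vM21, which matched 55154 of 55421 identifiers (99.5%).

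Counts were tested with edgeR 4.0.16 (R 4.3.3): a minimum count of 10 in its expression filter left 19868 genes, TMM scaling gave factors of 0.95 to 1.13, 10 group means were fitted to all 30 libraries (20 residual degrees of freedom, biological coefficient of variation 9.15%), and a quasi-likelihood F-test with Benjamini-Hochberg adjustment was applied to 13 contrasts, called under 0.05. CPM values use TMM library sizes. The standard error is the size of the log2 fold change over the square root of F. The steps were tested on simulated data. Alternatives were DESeq2 1.42.0, its scaling, scaling without the mitochondrial genes, scaling by total counts alone (chosen after seeing the data), no filter, the compared groups alone, the replicate number as a block and each library left out.

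Same-numbered libraries of the 2 groups of a line deviated together in the 4 degron lines (correlations of 0.109 to 0.333 in every pair) and not in TIR1 (-0.0102 to 0.0574). The numbers were therefore taken as pairs in those 4 lines only, and only to describe values pair by pair. The main test had no term for pairs. The block alternative fitted the replicate number as effects shared by all lines, TIR1 included, so no test modelled the pairs within a line. The members and gene lists were chosen with earlier results of these data known. Members called were described by counts beside those over all genes. The rule for named genes took all mitochondrial members, the 4 largest called changes in each direction per treatment effect and the 2 largest per comparison of untreated lines (mean of at least 50 counts, groups not overlapping), the 2 largest per difference of effects, and the tissue forms. Cox5a, Ndufv2, Sdhc, Sdhd, Atp5a1, Atp5b and the further members listed for differences of effects were named outside it, after their values were seen. The names listed for 1 difference of effects leave out 1 called member, which is not reported here.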

Additional observations from a re-analysis of the deposited data

Results flagged for a closer look

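For 12 results on named members the treatment effect differed between 2 lines by edgeR's test of the difference itself, adjusted over all genes. Relative to TIR1, the PDS5AB effect differed by -0.80 for Ndufaf5, -0.58 for Ndufaf4, 0.38 for Cox8a and 0.31 for Ndufa3 on the log2 scale. The Cox8a difference was lost in 3 of 19 alternatives. The Ndufaf5 and Ndufaf4 differences were kept in all 19 alternatives and the Ndufa3 difference (adjusted p = 0.0450) was lost in 11 of 19. Relative to TIR1, the WAPL effect differed by 1.51 for mt-Co2, 0.51 for Atp5mpl and -0.35 for Ndufaf4. mt-Co2 belongs to the 6 genes of the copied stretch, and its difference was lost in 9 of 19 alternatives. It read 17.6, 17.2 and 23.9 CPM untreated and 18.0, 16.9 and 48.0 CPM after auxin in WAPL, so auxin library 3 stood apart there. In TIR1 it read 33.5, 39.8 and 23.4 CPM and then 17.4, 13.8 and 17.1 CPM.

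The effect in PDS5AB-NIPBL differed from that in PDS5AB by 0.67 for Ndufaf5, 0.66 for Ndufaf4 and -0.72 for Atp5s. The Atp5s difference was lost in 9 of 19 alternatives. The effect in WAPL-NIPBL differed from that in WAPL by 0.41 for Ndufaf4 and 0.29 for Uqcrfs1. Ndufaf4 was the 1 member for which all 4 differences of effects were called. Its difference between WAPL and TIR1 was lost in 6 of 19 alternatives: scaling by total counts alone, or without TIR1 auxin library 1 or 2, untreated TIR1 library 1, WAPL auxin library 3 or untreated WAPL library 1 (largest adjusted p 0.0997).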

How the results depend on the processing

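Of 106 results for single genes, 39 were kept in all alternatives run for them and 67 were lost in at least 1. One of these reversed: Uqcrfs1 in PDS5AB had a log2 fold change of 0.01 with scaling by total counts alone. Of 441 alternatives for the counts and ratios, 320 stayed within 1.5 times the value given or, for a ratio, within 1 SD. The low counts of the 6 mitochondrial genes of the copied stretch limit what can be said of them. For the values that changed below, the cause was not tested, except that leaving out a library leaves fewer samples.

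With the replicate number as a block, the treatment effects had 7 nuclear members called in PDS5AB-NIPBL, 1 in WAPL-NIPBL and 3 mitochondrial members in WAPL. In TIR1, whose numbers did not pair the libraries, the block gave 5 mitochondrial members. For untreated lines it gave 17 nuclear members in PDS5AB, 40 nuclear and 1 mitochondrial in WAPL and 2 nuclear in WAPL-NIPBL. For differences of effects it gave 4 mitochondrial members for WAPL minus TIR1 and 2 for PDS5AB-NIPBL minus PDS5AB. It changed no other count by over 1.5 times.

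With the compared groups fitted alone, TIR1 had 54 nuclear and 8 mitochondrial members called, PDS5AB 6 mitochondrial, and WAPL 5 nuclear and 2 mitochondrial. Untreated WAPL and PDS5AB-NIPBL then had 3 mitochondrial members each and untreated WAPL-NIPBL 3 nuclear. The differences had 4 mitochondrial (WAPL minus TIR1), 8 nuclear and 2 mitochondrial (PDS5AB-NIPBL minus PDS5AB) and 1 nuclear (WAPL-NIPBL minus WAPL).

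With no filter, the mitochondrial members called were 6 in TIR1, 9 in PDS5AB, 5 in WAPL, 4 in each of untreated PDS5AB, WAPL and PDS5AB-NIPBL, 1 in untreated WAPL-NIPBL, and for the differences 7 (PDS5AB minus TIR1), 8 (WAPL minus TIR1) and 5 (PDS5AB-NIPBL minus PDS5AB). The nuclear counts were 7 in PDS5AB-NIPBL, 3 in untreated WAPL-NIPBL and 0 for WAPL-NIPBL minus WAPL.

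Scaling by total counts alone, chosen after seeing the data, moved the median of all genes by 0.15 in PDS5AB, 0.14 for PDS5AB minus TIR1 and -0.11 for PDS5AB-NIPBL minus PDS5AB. The other 2 scalings moved no median by over 0.1. With it, the treatment effects had 24 nuclear and 0 mitochondrial members called in PDS5AB, 1 mitochondrial in TIR1, 4 mitochondrial in WAPL and 1 nuclear in WAPL-NIPBL. Untreated PDS5AB had 22 nuclear and 1 mitochondrial and untreated PDS5AB-NIPBL 2 mitochondrial. The differences had 16 nuclear (PDS5AB minus TIR1), 20 nuclear and 6 mitochondrial (WAPL minus TIR1) and 5 nuclear and 0 mitochondrial (PDS5AB-NIPBL minus PDS5AB). The share of all calls that were lower went from 43.9% to 25.2% in PDS5AB, 48.1% to 32.8% in WAPL, 41.3% to 30.6% in PDS5AB-NIPBL, 40.3% to 26% in WAPL-NIPBL, 51.5% to 40.5% in untreated PDS5AB and 50.6% to 65.9% in untreated PDS5AB-NIPBL. For differences it went from 47.1% to 25.1% (PDS5AB minus TIR1), 52.5% to 39.4% (WAPL minus TIR1) and 47.4% to 74.9% (PDS5AB-NIPBL minus PDS5AB).

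DESeq2 called 6 nuclear members in PDS5AB-NIPBL, 1 in WAPL-NIPBL, 0 mitochondrial in untreated PDS5AB-NIPBL and 1 for WAPL minus TIR1. Leaving out the 6 genes of the copied stretch, an alternative chosen after seeing the data, left 0 mitochondrial members called in TIR1. The log2 ratio computed from mean log2 CPM changed by -0.19 in TIR1, -0.06 in PDS5AB and 0.01 in PDS5AB-NIPBL. That mean includes mt-Co2, mt-Atp8, mt-Atp6 and mt-Co3 of the copied stretch.

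Leaving out each library in turn gave, for treatment effects, 8 to 28 nuclear and 0 to 2 mitochondrial members in TIR1, 39 to 51 and 1 to 3 in PDS5AB, 6 to 29 and 0 to 3 in WAPL, and 2 to 5 nuclear in PDS5AB-NIPBL. For untreated lines it gave 8 to 16 nuclear in PDS5AB, 8 to 31 nuclear in WAPL, 19 to 34 nuclear and 0 to 1 mitochondrial in PDS5AB-NIPBL, and 0 to 1 nuclear in WAPL-NIPBL. For differences it gave 6 to 9 nuclear (PDS5AB minus TIR1), 4 to 17 nuclear and 1 to 3 mitochondrial (WAPL minus TIR1), 4 to 13 nuclear and 0 to 2 mitochondrial (PDS5AB-NIPBL minus PDS5AB) and 0 to 2 nuclear (WAPL-NIPBL minus WAPL). The log2 ratio changed by 0.08 to 0.17 in TIR1, 0.09 to 0.16 in PDS5AB, 0.26 to 0.31 in WAPL, 0.05 to 0.19 in PDS5AB-NIPBL and 0.05 to 0.16 in WAPL-NIPBL.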
